A study of Cavia porcellus with 72 samples.

Results

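The mitochondrial ribosomal proteins are the nuclear-encoded protein components of the ribosome inside mitochondria. Their genes carry the symbols MRPL (large subunit) and MRPS (mostly small subunit). MRPS18A and MRPS30 have MRPS symbols but were counted here with the large subunit. Genes were chosen by symbol alone, as every row of the count tables whose symbol began with MRPL or MRPS followed by a number. This gave 70 genes in all. Of the 11651 genes counted in F1, 65 were members, as were 70 of 11716 in F2 and 65 of 11663 in F3. The 65 genes of F1 and F3 were the same genes, and MRPL2, MRPL4, MRPL34, MRPL55 and MRPS18B were read only in F2. Every member passed the filter on low counts in each table that held it.

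Hippocampal RNA came from female guinea pigs (Cavia porcellus) on postnatal day 40. The F1 animals were daughters of Dunkin-Hartley mothers that had received betamethasone, a synthetic glucocorticoid (sGC; 3 courses at 1 mg/kg, the earliest on gestational day 40 and the latest ending on day 61), or saline (control). The F2 and F3 animals descended from those pregnancies through males mated with untreated females and had no injections of their own. There were 6 control and 5 sGC animals in F1, 6 and 6 in F2, and 6 and 7 in F3, each from its own mother. Each library was 1 animal's powdered right hippocampus, so all cell types of the tissue were pooled.

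The mitochondrial ribosome translates the messages of mitochondrial DNA, all of which encode subunits of the respiratory chain and ATP synthase. Its proteins are made in the cytosol and imported. Some descend from bacterial ribosomal proteins, whereas others are found only in mitochondria. Neurons depend on oxidative phosphorylation, and inherited defects of several of these genes cause mitochondrial disease that affects the brain.

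The 36 libraries held between 13507449 and 19767033 counted reads, and members took 0.276% to 0.339% of them. A member had a median of 562 reads per library in F1, 489 in F2 and 535 in F3, and the lowest value was 50 reads (MRPL33, F2). Between control animals the median coefficient of variation of a member was 5.07% in F1, 5.07% in F2 and 6.37% in F3, and it was highest for MRPL33 in all generations, the least abundant in reads. CPM (reads scaled to a common library size, adjusted by the TMM method) were not corrected for gene length, so they compare animals and not genes. Hippocampal neuron markers summed to 5706 to 8867 CPM in every library, against 118 to 157 CPM for markers of striatal and thalamic neurons. Choroid plexus markers varied more between libraries, at 22.6 to 691 CPM in F2 (3 genes tested). In F1 (2 genes) and F3 (3 genes) they summed to 18.4 to 41.9 CPM.

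In F1, most mitochondrial ribosomal protein genes were slightly lower in sGC animals. The fitted log2 fold change was below 0 for 53 of 65 members (81.5%), against 51.7% of all genes tested, and its median was -0.09, against -0.01 for all genes. No member passed the adjusted threshold of 0.05 in edgeR's quasi-likelihood test, where 2.08% of 11377 genes did (237 genes; 1.63% higher and 0.457% lower). At an unadjusted p below 0.05 there were 26 members, 25 of them lower, which is 38.5% of members lower against 9.06% of all genes. edgeR's likelihood ratio test and DESeq2 each called 4 members, namely MRPL24, MRPL37 and MRPS31 (lower) and MRPS21 (higher), where they called 5.26% and 5.78% of genes. In bulk tissue, fewer cells of a type and less RNA per cell cannot be told apart.

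The shift was present in each F1 sGC library. The median over members of the difference from the control mean, on the log2(CPM + 0.5) scale, was -0.11, -0.06, -0.09, -0.08 and -0.06 in the 5 sGC animals. In the 6 control animals it lay between -0.04 and 0.04, so the groups did not overlap. In the summed CPM of the members the groups did overlap, with 2757 to 2904 CPM in sGC and 2873 to 3042 CPM in control. The sample titles end in a number, called the library number here, and the labels do not say what it stands for. For sGC replicates 4 and 5 it is 35 and 32, above those of all controls. Numbers 32 to 36 in the series all belong to sGC animals. Without sGC replicates 4 and 5 the median was -0.10 and 55 of 65 members were lower.

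**Figure D1:**
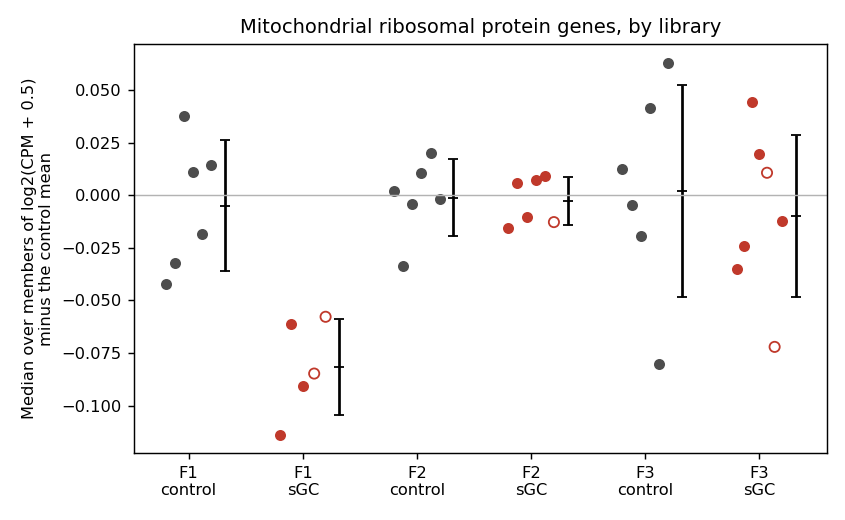
Each point is 1 library; the vertical axis gives the median over members of log2(CPM + 0.5) minus the control mean of the same generation. Open points are the sGC libraries numbered 32 to 36, and bars give mean ± SD. The F1 sGC libraries lie between -0.11 and -0.06 and below all F1 controls, whereas the groups overlap in F2 and F3.

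Both subunits and both origins showed the F1 pattern. Of the large-subunit genes with bacterial relatives 21 of 24 were lower (median -0.07), and of the mitochondria-specific large-subunit genes 16 of 19 (median -0.10). In the small subunit 9 of 13 genes with bacterial relatives (median -0.10) and 7 of 9 mitochondria-specific genes (median -0.09) were lower. Across all 65 genes the log2 fold change ranged from -0.28 to 0.14.

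**Figure D2:**
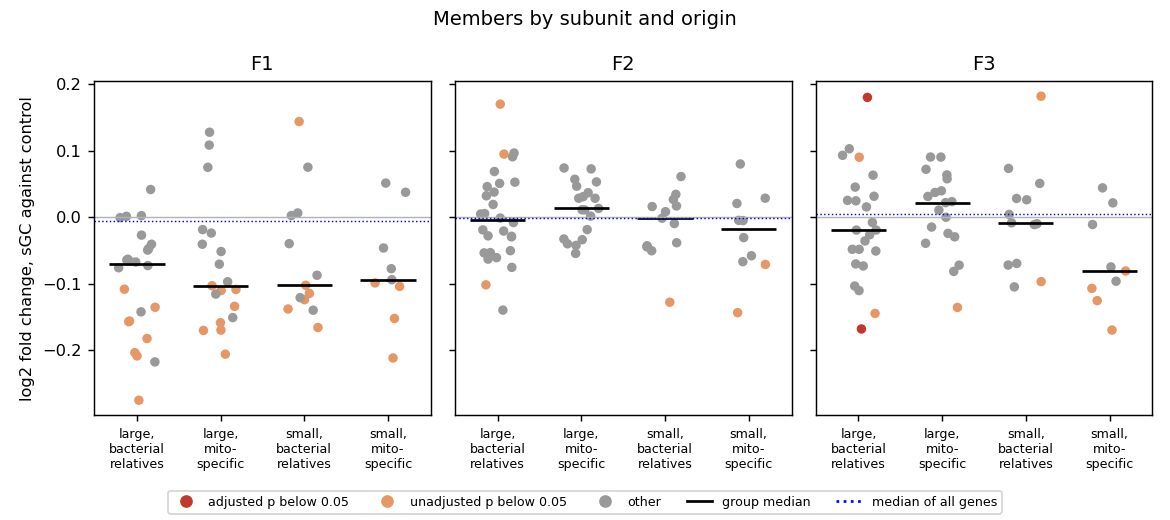
Each point is 1 member; the vertical axis is its log2 fold change in sGC against control, by subunit and origin, in F1, F2 and F3. Black lines are medians and the dotted line is the median of all genes tested. In F1 the 4 medians lie between -0.10 and -0.07, and in F3 the 2 red points are MRPL14 (higher) and MRPL15 (lower).

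MRPS31, a small-subunit protein found only in mitochondria, had the smallest p in F1. It stood at 19.3, 19.1, 17.3, 17.7 and 18.8 CPM in the sGC animals and at 20.1 to 22.7 CPM (median 21.3) in control. The groups did not overlap, and all 5 sGC values were below the control mean. The log2 fold change was -0.21 ± 0.05 (SE), a fall of 13.6%, with an adjusted p of 0.0577.

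MRPL24, a large-subunit protein with a bacterial relative, showed the same size of difference. Its sGC values were 26.4, 28.6, 28.7, 29.4 and 28.8 CPM, and its control values ran from 30.8 to 36 CPM (median 32.4). All sGC animals lay below all controls. The log2 fold change was -0.21 ± 0.05 (adjusted p 0.0585).

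MRPS21, the relative of a bacterial small-subunit protein, went the other way. It stood at 117, 127, 118, 120 and 112 CPM in sGC animals and at 100 to 110 CPM (median 109) in control, so that every sGC value exceeded every control. The log2 fold change was 0.14 ± 0.04 (adjusted p 0.0718). It was the only member that was higher at an unadjusted p below 0.05 in F1.

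The remaining members with the 10 smallest p-values in F1 were all lower, with no sGC value above the control mean. For MRPL22, a large-subunit protein of the peptide exit tunnel region, the sGC values were 13.2, 12.4, 12.3, 12.6 and 12.3 CPM against 13.3 to 15.3 CPM in control, and the groups did not overlap. For MRPL11, a protein of the large subunit's factor-binding stalk base, the sGC values were 13.2, 12.6, 13.8, 12.7 and 13 CPM against 14.3 to 15.4 CPM in control. MRPL11 too was separated between the groups, as was MRPS18C (31.1 to 33.4 CPM against 34.3 to 36.4 CPM), which belongs to a family of 3 MRPS18 proteins. Their log2 fold changes were -0.20 ± 0.06, -0.18 ± 0.05 and -0.12 ± 0.04, and the adjusted p was 0.0786, 0.0847 and 0.113.

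MRPL37, which is mitochondria-specific, stood at 28.6 to 33.6 CPM in sGC animals and at 33.3 to 36.9 CPM in control, with an overlap of a pair of animals (log2 fold change -0.17 ± 0.05; adjusted p 0.0801). MRPL41 had sGC values of 19.2, 19.2, 16.4, 15.6 and 19.2 CPM against 19.2 to 23.4 CPM, with the nearest animals equal at this rounding (log2 fold change -0.21 ± 0.07; adjusted p 0.136). MRPS2 and MRPS33 overlapped between groups, with log2 fold changes of -0.17 ± 0.05 and -0.15 ± 0.06 and adjusted p of 0.122 and 0.153. MRPL27, a bacterial-type large-subunit protein, spread widely: 13.4, 18.6, 17.9, 19.6 and 22.1 CPM in sGC animals against 20.3 to 24.9 CPM in control.

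In all, 8 members (12.3%) lay lower in every F1 sGC animal than in every control, where 1.96% of all genes did. These were MRPL11, MRPL22, MRPL24, MRPL40, MRPL41, MRPS18A, MRPS18C and MRPS31. MRPS21 was the only member higher in every sGC animal, beside 2.45% of all genes. At the other end, MRPL35, MRPS25 and MRPS7, the members with the most reads per library on average over the generations, had small differences in F1: the group means were 174 and 174 CPM, 165.8 and 170.2 CPM, and 158 and 159 CPM in control and sGC. The members with the fewest reads were MRPL33, MRPS14 and MRPL50, at 5.203, 9.78 and 9.58 CPM in F1 control and 4.48, 8.86 and 10.5 CPM in sGC. All 6 genes overlapped between the groups. Within F1 alone, MRPS34 had the highest mean, at 206 CPM over both groups. It stood at 189 to 213 CPM in sGC and 208 to 216 CPM in control. In the quasi-likelihood test it was lower at an unadjusted p below 0.05. Its F2 level of 22.3 to 28.5 CPM lowered its average over the generations.

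Genes that work with the mitochondrial ribosome were read beside it, from lists chosen by function. Among its assembly and rRNA-modification factors 18 of 23 were lower in F1 (median -0.04), and only YBEY, an endoribonuclease of mitochondrial rRNA maturation, was called: 10.3 ± 0.754 CPM (SD, n = 6) in control and 8.21 ± 0.365 CPM (n = 5) in sGC, log2 fold change -0.32 ± 0.07, adjusted p 0.0411. Of the ribosome's proteins with other gene names 4 of 5 were lower and none was called. Translation factors (6 of 13 lower), mitochondrial tRNA synthetases (7 of 15) and genes for mitochondrial DNA transcription and RNA handling (11 of 20) were divided, with 0 called. Nuclear-encoded respiratory chain subunits were lower in 52 of 58 cases (median -0.08), with NDUFS6 of complex I called (log2 fold change -0.16 ± 0.04; adjusted p 0.0399). Cytosolic ribosomal proteins, which build the ribosomes outside mitochondria, were above 0 in 31 of 51 cases (median 0.03, none called). This direction rested on sGC replicate 4, whose library held 11028 CPM of them in sum, against 7460 to 8643 CPM in the other 4 sGC animals and 7943 to 9421 CPM in control. In a fit without that animal, chosen after seeing the data, 0 of 51 were above 0 (median -0.09, none called), and 54 of 58 respiratory chain subunits were lower (median -0.10, 4 called).

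Some marker lists of cell types also differed between the F1 groups. Astrocyte markers were higher for 8 of 8 genes (median log2 fold change 0.24, 0 called), with summed levels of 9481 to 15487 CPM in sGC animals and 8308 to 10853 CPM in control. The highest of these sums was that of sGC replicate 4, and the next was 12540 CPM in sGC replicate 5. Meningeal fibroblast markers were lower for 8 of 8 genes (median -0.93), of which LUM and DCN were called, and summed to 84.5 to 174.9 CPM in sGC and 129 to 376 CPM in control. Oligodendrocyte markers were lower for 6 of 6 genes (median -0.24, 0 called) and summed to 1389 to 2004 CPM in sGC and 1551 to 2184 CPM in control. Microglia markers were higher for 6 of 7 genes (median 0.17) and endothelial markers for 4 of 6 (median 0.11), with 0 called. Neuron markers were lower for 4 of 6 genes and hippocampal neuron markers for 4 of 8 (median -0.03 in each list, 0 called). The part of these lists in the members' shift was not tested.

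In F2, the members divided evenly between higher and lower in sGC animals. The fitted fold change was below 0 for 35 of 70 members and above 0 for 35, with a median of 0.0004, and 50.3% of all genes were below 0. No member was called, and neither was any of the 11414 genes tested (0%); the smallest adjusted p of a member was 0.678. At an unadjusted p below 0.05 there were 6 members (8.57%), 2 higher and 4 lower, against 6.64% of all genes, 3.74% higher and 2.9% lower. No member was called by the likelihood ratio test or DESeq2, which called 0.0526% and 0.105% of all genes. Every member overlapped between the groups, where 0.219% of all genes did not and were higher and 0.184% did not and were lower.

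MRPL34, a bacterial-type large-subunit protein read only in the F2 table, had the smallest p. It stood at 32.1 to 38.6 CPM (median 33.8) in sGC animals and 28.3 to 32.8 CPM (median 30.02) in control, a log2 fold change of 0.17 ± 0.05 (adjusted p 0.678). MRPL3, a core protein of the large subunit, stood at 43.6 to 46.1 CPM (median 44.5) against 44.9 to 50.8 CPM (median 47.8), a log2 fold change of -0.10 ± 0.03 (adjusted p 0.678). MRPS22, a mitochondria-specific small-subunit protein, stood at 29.5 to 37.0 CPM (median 32.9) against 34.6 to 39.3 CPM (median 36.1). Its log2 fold change was -0.14 ± 0.05 (adjusted p 0.7001).

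MRPS5, MRPL14 and MRPS35 were the other members below 0.05 unadjusted, with log2 fold changes of -0.13, 0.10 and -0.07 and adjusted p from 0.711 to 0.744. For MRPL51, MRPL43, MRPL18 and MRPL32, which complete the 10 smallest p-values, they were -0.05, 0.07, -0.05 and -0.08. Of the genes that came first in F1, MRPS31 stood at 20.7 ± 0.715 CPM in sGC (SD, n = 6) and 21.6 ± 0.884 CPM in control (n = 6), and MRPL24 at 31.6 ± 2.12 and 30.9 ± 1.64 CPM. None of the 5 lists of genes that work with the mitochondrial ribosome had a called member in F2. Cytosolic ribosomal proteins were higher for 47 of 51 genes (median 0.08, 0 called).

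In F3, the members as a group again lay about 0, and a pair of large-subunit genes passed the test in opposite directions. The fold change was below 0 for 35 and above 0 for 30 of 65 members, with a median of -0.01, against 0.005 for all genes, of which 48.3% were below 0. MRPL14 was higher and MRPL15 lower in sGC animals, so 3.08% of members were called, where 5.04% of all genes tested were (2.17% higher and 2.87% lower). At an unadjusted p below 0.05 there were 11 members (16.9%), against 21.1% of all genes. Of these members 8 were lower (12.3% of members) and 3 higher, against 10.8% and 10.3% of all genes. No member was free of overlap between the groups, where 0.836% of all genes were higher and 1.88% lower without overlap. Without the 2 sGC libraries numbered 34 and 36 the split was 28 lower and 37 higher. Only MRPL14 was then called, where 2.79% of all genes were.

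MRPL14, a bacterial-type large-subunit protein at the interface with the small subunit, stood at 68.3 to 78.9 CPM (median 73.7) in sGC animals and at 61.7 to 69.5 CPM (median 63.9) in control. All 7 sGC animals lay above the control mean, and the groups overlapped at their edges. The log2 fold change was 0.18 ± 0.04, a rise of 13.3% (adjusted p 0.0204). Its gene span overlaps that of TMEM63B in the RefSeq annotation (assembly mCavPor4.1), and the library kit does not mark strand, so reads in the shared stretch cannot be assigned to either gene with certainty. TMEM63B itself was not called in F3 (log2 fold change -0.11, adjusted p 0.108).

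MRPL15, another bacterial-type protein of the large subunit, stood at 46.5 to 51.8 CPM (median 49.8) in sGC animals and at 50.8 to 62.5 CPM (median 54.5) in control. All 7 sGC animals lay below the control mean. The log2 fold change was -0.17 ± 0.05, a change of -11.0% (adjusted p 0.0456). This call was lost in 13 of 20 alternative fits, and without control replicate 6, the highest control, the log2 fold change was -0.13 (adjusted p 0.0821). The call of MRPL14 was lost in 4 of 20, among them without control replicate 4 (adjusted p 0.0501) and without sGC replicate 5 (adjusted p 0.0525).

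**Figure D3:**
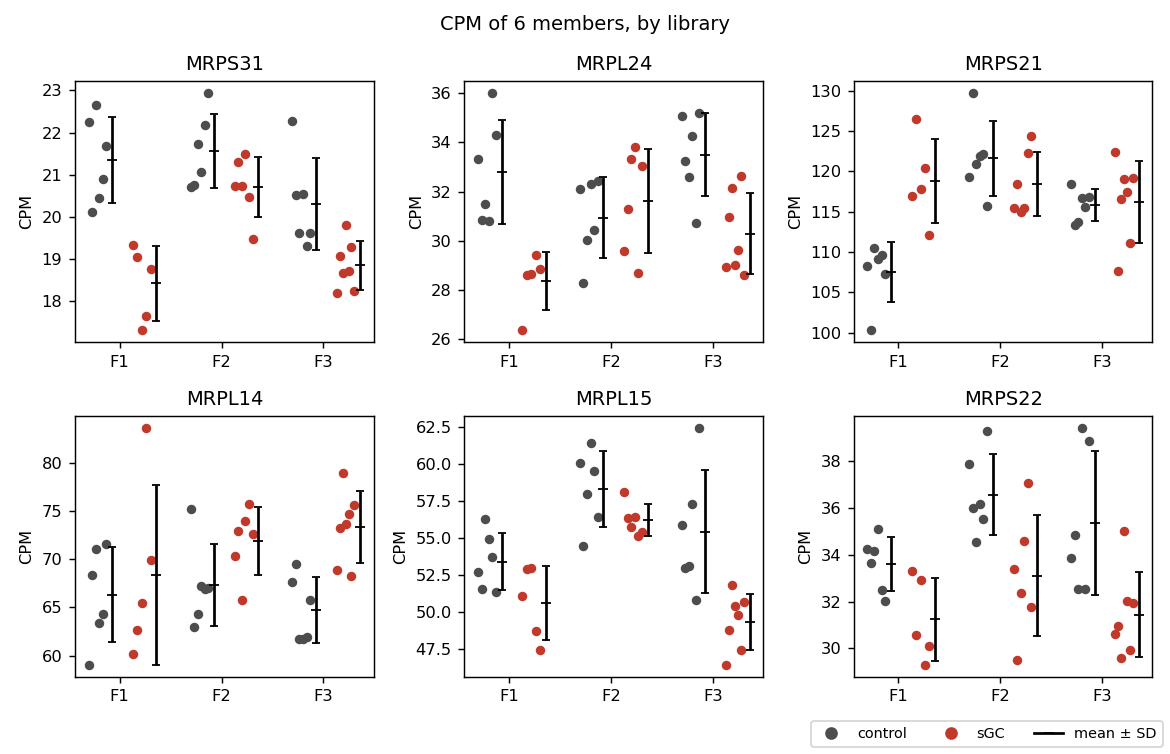
Points are libraries (control grey, sGC red), the vertical axes give TMM-scaled CPM on separate scales that do not start at 0, and bars give mean ± SD. MRPS31 and MRPL24 lie lower and MRPS21 higher in all F1 sGC animals, and MRPL14 and MRPL15 carry the F3 calls.

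The members that followed in F3 did not pass the adjusted threshold. MRPL24 stood at 28.6 to 32.6 CPM (median 29.6) in sGC animals and at 30.7 to 35.2 CPM (median 33.7) in control, a log2 fold change of -0.14 ± 0.05 (adjusted p 0.0788). MRPS22 stood at 29.6 to 35 CPM (median 31) against 32.5 to 39.4 CPM (median 34.3), a log2 fold change of -0.17 ± 0.06 (adjusted p 0.0873). DESeq2 called MRPS22 in F3, beside MRPL14 and MRPL15. In both genes every sGC animal was below the control mean, and the groups overlapped.

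MRPS26, MRPS31 and MRPS2 of the small subunit had log2 fold changes of -0.13, -0.11 and -0.10 with all 7 sGC animals below the control mean (adjusted p 0.117, 0.194 and 0.208). MRPL39 stood at -0.14 (adjusted p 0.225). MRPS14, a bacterial-type small-subunit protein with few reads, had a log2 fold change of 0.18 ± 0.07 (9.08 to 11.2 CPM in sGC, 8.28 to 9.77 CPM in control; adjusted p 0.140). MRPL12, a stalk protein of the large subunit that also binds the mitochondrial RNA polymerase, had 0.09 ± 0.04 (adjusted p 0.231).

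By subunit, the 9 mitochondria-specific small-subunit genes had the lowest median in F3 (-0.08, 7 of 9 lower), and the 19 mitochondria-specific large-subunit genes the highest (0.02, 7 of 19 lower). The difference between these groups was not tested. Among the functional neighbours, MARS2, the mitochondrial methionyl-tRNA synthetase, was higher at 19.8 ± 1.36 CPM (SD, n = 7) against 14.4 ± 2.06 CPM (n = 6), which is 0.46 ± 0.08 on the log2 scale (adjusted p 0.00526). POLG2, the accessory subunit of the mitochondrial DNA polymerase, was lower at 5.94 ± 0.511 CPM against 7.49 ± 0.686 CPM, or -0.34 ± 0.08 on the log2 scale (adjusted p 0.0267). Translation factors were lower in 8 of 13 cases and assembly factors in 13 of 23, with 0 called in each list.

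The cytosolic ribosomal proteins showed another picture in F3: 49 of 51 were higher (median 0.20) and 32 were called, all higher. The respiratory chain subunits were higher in 35 of 58 cases (median 0.02), with 2 called, ATP5A1 of ATP synthase and UQCRC2 of complex III, both lower. Neuron markers were lower for 6 of 6 genes (4 called), with 4321 to 4982 CPM summed in sGC and 5115 to 5504 CPM in control. Hippocampal neuron markers, a separate list, were lower for 6 of 8 genes and higher for 2 (median -0.05, 0 called). Their sum had a higher median in sGC (7342 CPM, range 5706 to 8238) than in control (6278 CPM, range 6136 to 6661). Astrocyte markers were higher for 8 of 8 genes (3 called; 10382 to 11931 CPM against 9184 to 10165 CPM). Meningeal fibroblast markers were higher for 8 of 8 genes (median 0.17), opposite to F1, and microglia markers for 7 of 7 (median 0.14). Endothelial markers were higher for 6 of 6 genes (median 0.05) and oligodendrocyte markers for 4 of 6 (median 0.05). None of these 4 lists had a called gene (0 called). The part of these shifts in the values of the members was not tested.

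F1 and F3 share no animals, and their values can be set side by side. Of the 65 members, 32 were lower in both and 9 higher in both, so 63.1% had the same sign, against 62.0% of all genes. Lower at an unadjusted p below 0.05 in both were 5 members (7.69%), namely MRPL24, MRPS2, MRPS22, MRPS31 and MRPS34, against 1.88% of all genes. In F1 by itself 38.5% of members were lower at that threshold, against 9.06% of all genes. In F3 by itself it was 12.3%, against 10.8%. Whether more members were shared than these separate shares would give was not tested. MRPS31 had a log2 fold change of -0.21 in F1 and -0.11 in F3, and MRPL24 had -0.21 and -0.14. The genes called in F3 stood at 0.04 (MRPL14) and -0.08 (MRPL15) in F1, and in F2 at 0.10 and -0.05.

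**Figure D4:**
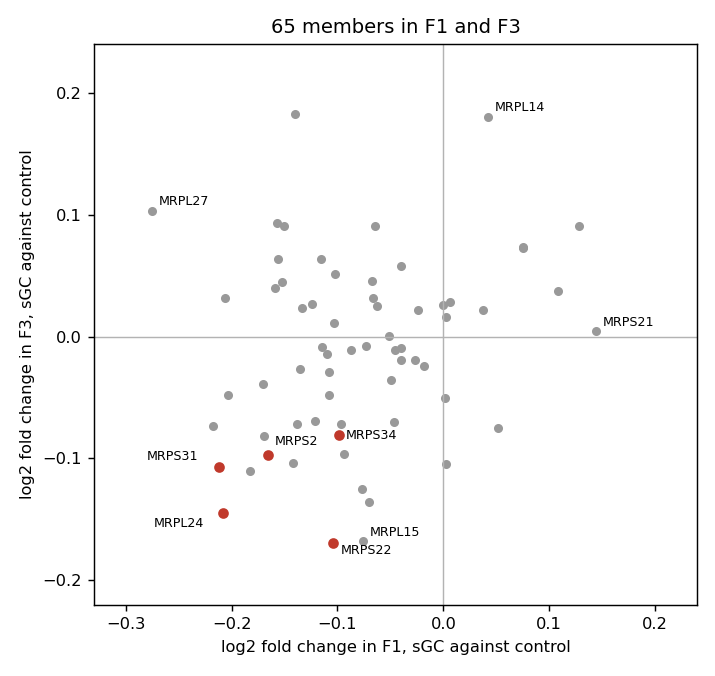
Each point is 1 of 65 members, with its log2 fold change in sGC against control in F1 on the horizontal axis and in F3 on the vertical axis. Red points are the 5 members lower at an unadjusted p below 0.05 in both, and 32 of the 65 points lie in the lower left part.

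The difference of the sGC effect between generations was tested in a joint fit of all 6 groups. It covered the 11390 genes that passed the filter, of 11446 shared by the tables. For F3 against F1 no member was called, and neither was any gene (0%). The difference was above 0 for 49 of 65 members, with a median of 0.06 against -0.01 for all genes, and 15 members (23.1%) had an unadjusted p below 0.05, where 13.1% of all genes did. The smallest p-values belonged to MRPL27 (0.37 ± 0.10; adjusted p 0.124), MRPS21 (-0.15 ± 0.05; 0.182), MRPS14 (0.31 ± 0.11; 0.237), MRPL20 (0.24 ± 0.09; 0.242) and MRPL41 (0.23 ± 0.09; 0.250). Without libraries 32 to 36, edgeR called 4 members, MRPL12, MRPL14, MRPL27 and MRPL51, where it called 3.77% of genes, and MRPL27 then stood at 0.52 (adjusted p 0.00826). The likelihood ratio test and DESeq2 called no member with all libraries, where they called 0.509% and 0.588% of genes.

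For F2 against F1 no member was called, where 33 genes (0.29%) were (0.0702% higher and 0.219% lower). MRPS21 was next to the threshold, at -0.19 ± 0.05 (adjusted p 0.0502), and passed it in the likelihood ratio test, in DESeq2, without the low-count filter and without libraries 32 to 36. MRPL24 followed at 0.23 ± 0.07 (adjusted p 0.0894) and was called by DESeq2 as well. MRPL37, MRPS30 and MRPL41 had 0.19, 0.21 and 0.25 (adjusted p 0.108, 0.147 and 0.147). The difference was above 0 for 51 of 65 members, with a median of 0.07, and 18 members had an unadjusted p below 0.05 (27.7%, against 16.8% of all genes). These comparisons share the F1 animals with those of F3 against F1.

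For F3 against F2 no member was called, nor any gene (0%), and 6 members (9.23%) against 9.08% of all genes had an unadjusted p below 0.05. The likelihood ratio test and DESeq2 called no member. MRPL24 came first at -0.18 ± 0.07 (adjusted p 0.505), followed by MRPS34, MRPS26, MRPL15 and MRPS14 at -0.16, -0.12, -0.11 and 0.23. The median over members was 0.001.

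Control animals of F2 stood apart from those of F1 and F3. Between F3 and F1 control no member was called (0.0176% of genes, 2 in number) and 45 of 65 were lower (50.2% of all genes), with 6 members at an unadjusted p below 0.05 (9.23%, against 7.7% of all genes) and none called by the likelihood ratio test or DESeq2. Between F2 and F1 control 29 of 65 members were called (44.6%), against 44.9% of all genes. Of these members 8 were higher (12.3%) and 21 lower (32.3%), against 22.5% and 22.4% of all genes. Between F3 and F2 control 22 of 65 members were called (33.8%), against 38% of all genes. Here 14 were higher (21.5%) and 8 lower (12.3%), against 19% and 19% of all genes. The separate F2 table and the F2 animals cannot be told apart in these comparisons, and levels in F2 should be read only against F2.

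Between F2 and F1 control 5 members differed by more than 1 on the log2 scale, and in these the 12 F2 libraries were separate from the 24 others. They were picked after their values were seen. Of the 11161 genes tested in every fit, 3.66% differed by more than 1, against 7.69% of members, and in 10.1% of all genes the F2 libraries were separate from the others, against 7.69% of members. MRPS26, a mitochondria-specific small-subunit protein, had 341 to 380 CPM in F2 and 26.1 to 31.7 CPM elsewhere (log2 difference 3.57 ± 0.04 in control). MRPS34, another such protein, had 22.3 to 28.5 CPM in F2 and 183 to 218 CPM elsewhere (log2 difference -3.16 ± 0.05). MRPL51 and MRPL49 of the large subunit were higher in F2, at 106 to 117 CPM against 22.5 to 32.4 CPM and at 57.4 to 65.3 CPM against 17.03 to 21.7 CPM. MRPL10, a protein of the stalk of the large subunit, was lower, at 27.9 to 34.0 CPM against 58.3 to 69.0 CPM.

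**Figure D5:**
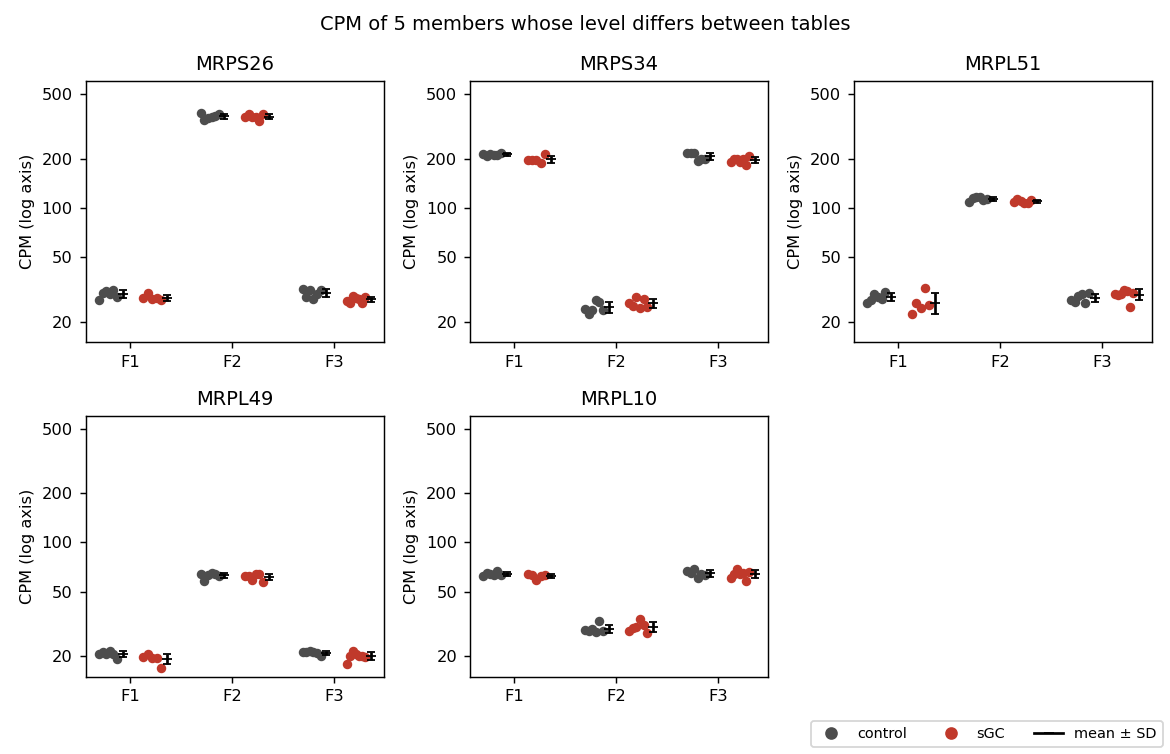
Points are libraries (control grey, sGC red), the vertical axes give TMM-scaled CPM on the same log scale, and bars give mean ± SD. In all 5 genes the F2 libraries stand apart from those of F1 and F3 while control and sGC stand together, as with MRPS26 at 341 to 380 CPM in F2 and 26.1 to 31.7 CPM elsewhere.

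The F2 sGC library numbered 33 had 377 CPM of MRPS26 and 24.6 CPM of MRPS34, as the other F2 libraries did. The 4 libraries of F1 and F3 numbered 32 and 34 to 36 had 26.3 to 27.8 CPM and 183 to 213 CPM. Whether the F2 reads were counted in another way was not tested. Within F2 the sGC and control groups overlapped for all 5 genes. MRPL46 and MRPS11, of the large and the small subunit, are neighbours in RefSeq (mCavPor4.1), the only such pair among the 70 members, all of which were matched there. Their F2 to F1 differences in control were 0.20 ± 0.04 and -0.18 ± 0.05 (adjusted p 0.000151 and 0.00537), opposite in sign.

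In the RefSeq annotation 14 members overlap another protein-coding gene. Among them are MRPS18C (with HELQ), MRPL27 (EME1), MRPS2 (PIERCE1), MRPS35 (MANSC4), MRPS7 (MIF4GD) and MRPL49 (SYVN1), the last of which stood apart in F2. Their counts may share the uncertainty given for MRPL14. The overlaps are of whole gene spans, and whether reads were shared in these counts was not tested. HELQ in F1 had a log2 fold change of 0.01 (adjusted p 0.969) where MRPS18C had -0.12, and EME1 had -0.08 (adjusted p 0.479) where MRPL27 had -0.28.

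Within groups the members varied together to differing degrees, as described by the correlation of each pair of genes across libraries after removing group means. The median correlation between members was 0.12 over 11 libraries in F1, 0.04 over 12 in F2 and 0.25 over 13 in F3, against about -0.001 between all genes. With cytosolic ribosomal proteins it was 0.09, 0.06 and 0.42, and with respiratory chain subunits 0.14, 0.12 and 0.36. The paired values come from the same libraries and share their scaling. In F3, control replicate 5 and sGC replicate 6 had the lowest levels over the members (-0.08 and -0.07) and control replicate 6 the highest (0.06).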

How the data were processed

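RNA of 36 hippocampi was sequenced by the authors (51-base reads; polyadenylated RNA kit without strand marking) and aligned with TopHat2, per the labels. The deposited tables hold raw read counts per gene and animal, 1 table per generation. They also hold the authors' own fold changes and p-values, which, with the methylation tables of the authors' comparisons, were not used here. The counting tool is not given in the sources used here.

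The tests used edgeR 4.0.16 under R 4.3.3 (with limma 3.58.1). After filterByExpr and TMM scaling, genes were tested by edgeR's quasi-likelihood test within each generation, sGC against control, with Benjamini-Hochberg adjustment over all genes tested and a threshold of 0.05. Differences between generations came from a joint fit of 6 groups. Positive values mean higher in sGC, or in the generation named first. Standard errors are of log2 fold changes. Alternatives were the likelihood ratio test, DESeq2 1.42.0, its size factors in edgeR, no filter, no libraries 32 to 36, a joint fit, a replicate block and leaving out each animal. The code was tested on simulated data. Figures used matplotlib 3.10.9. Neighbouring genes came from RefSeq (mCavPor4.1).

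The genes described in each generation were the 10 with the smallest p plus any called, and the 5 smallest per difference between generations. The 3 with the most and the 3 with the fewest reads in control, averaged over the generations, were added. Of other lists, called genes were described. Members and lists were chosen with earlier results of these data known. Library pairs differed by 2.10 to 28.7 times the counting noise. The p-values measure spread between animals.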

Additional observations from a re-analysis of the deposited data

Results flagged for a closer look

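Of 66 groups of 5 to 7 animals tested by Dixon's criterion, 4 held an animal far from the others, where chance flags about 1 in 20 groups. For MRPL24, F1 sGC replicate 1 stood at 26.4 CPM and the other sGC animals at 28.6 to 29.4 CPM. For MRPS21, F1 control replicate 2 stood at 100.3 CPM and the other controls at 107 to 110 CPM. For MRPS5, F2 control replicate 1 stood at 28.2 CPM and the others at 33.4 to 35.4 CPM. In the same animal MRPL14 stood at 75.2 CPM, with 63.0 to 67.3 CPM in the others.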

How the results depend on the processing

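Percentages in this paragraph are the share of all genes called in the same fit. The F1 count of called members rose from 0 (2.08%) to 4 with the likelihood ratio test (5.26%) and to 4 with DESeq2 (5.78%). It was 7 when all 3 generations were fitted together (7.48%). These 7 were MRPL24, MRPL27, MRPL37, MRPL41, MRPS2, MRPS21 and MRPS31. Leaving out animals gave 0 to 1 in F1 (1, MRPL24, without sGC replicate 4, 3%). The F3 count of 2 (5.04%) fell to 1 without libraries 32 to 36 (2.79%) and to 1 in the joint fit (2.93%). It rose to 3 with DESeq2 (MRPS22 added, 8.31%). On leaving out animals it ranged from 0 to 3 (3, with MRPL24 added, without control replicate 5, 4.4%). The F2 count was 0 throughout (at most 0.105%, with DESeq2). For F3 against F1 the count was 4 without libraries 32 to 36 (3.77%). For F2 against F1 it was 1 with the likelihood ratio test (1.47%) and 2 with DESeq2 (2.37%). It was 1 without the filter (0.577%) and 1 without libraries 32 to 36 (0.596%). The cause of these changes was not tested. Of the 45 gene results recomputed (the 10 smallest p per generation and the 5 smallest per difference of the sGC effect), 0 reversed their sign. These results were picked for small p in the same libraries that the alternatives reuse. A reversal was therefore unlikely from the start, and the count does not measure how stable they are. Of the F1 cytosolic ribosomal proteins, 31 of 51 were above 0 with all libraries and 0 of 51 both without sGC replicate 4 and without libraries 32 to 36 (median -0.14), alternatives chosen after seeing the data. DESeq2 gave no adjusted p for 18 members in F3 and 3 in F2.

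Replicate numbers did not pair the animals (correlations of same-numbered animals -0.07 to 0.32 in F1, -0.39 to 0.18 in F2 and -0.31 to 0.03 in F3; 1 of 5, 0 of 6 and 0 of 6 correlated best with their own number). With the replicate block, 0 members were called in F1, 0 in F2 and 0 in F3, where 0.633%, 0% and 1.51% of all genes were. The medians over members were -0.08, 0.0009 and -0.002. Depth limits MRPL33 most, with 50 reads in its lowest library.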
